A study of Mus musculus with 41 samples.

Results

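The Polo-like kinases are serine/threonine kinases that share a polo-box domain, and their 5 mouse genes, Plk1, Plk2, Plk3, Plk4 and Plk5, were followed here across 41 mammary tumors. They were taken by symbol, as 5 of the 47480 gene rows of the deposited table, and all 5 symbols were found once. RNA was sequenced from 28 Plk2-/-; p53-/- and 13 p53-/- tumors of untreated Balb/c mice, each as a single library, and tumors are given below by their numbers (PLK2null-1975, p53null-2208L).

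Both groups therefore lack p53, and only the larger group also lacks Plk2. The Plk2-/-; p53-/- tumors arose from mammary epithelial cells that were moved from mutant mice into the cleared fat pads of wild-type hosts, so that host cells in them keep an intact Plk2. The p53-/- tumors belong to a bank of transplantable Balb/c tumors. The series is described as serially transplanted, but the labels do not say which tumors share a line, and where some do, p-values measure only the spread between samples. The study, not the labels, names 7 Plk2-/-; p53-/- tumors as primary and places 4 tumors in the claudin-low class, which is low in epithelial junction genes: PLK2null-743, PLK2null-733, PLK2null-732 and p53null-T11. The age of the mice was not given in the sources used here.

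PLK1 drives entry into mitosis, centrosome maturation, spindle assembly and cytokinesis, and its RNA rises toward mitosis in dividing cells. PLK4 starts centriole duplication. PLK2 and PLK3 respond to stress and growth factors, and their genes behave as immediate-early genes. PLK5 lacks kinase activity and is found mainly in the brain.

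Values are gene-level estimated counts that the authors divided by the upper quartile of each tumor, so that the upper quartile of nonzero values is 1000 in all tumors. The implied depth was 29409609 to 70868124 fragments on genes, with a median of 39053966 in the Plk2-/-; p53-/- and 58042777 in the p53-/- tumors. A single read was worth 0.388 to 0.817, and 3 reads, used as the floor of detection, 1.16 to 2.45, which covers counting error only. A series name stands in the title of each p53-/- library and in none of the Plk2-/-; p53-/- titles, so that a library batch and the genotype cannot be told apart. In bulk tumors fewer cells of a type and less RNA per cell cannot be told apart either.

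The promoters of the 4 members that were expressed well above the floor are shown as a description, and no link between their letters and the values was tested. Sequences come from RefSeq on GRCm38.p6, the mm10 build, and are given 5′ to 3′ on the strand of the gene, ending at the base before the RefSeq start. Capitals mark matches to the cell-cycle genes homology region (TTTGAA), the CCAAT box (CCAAT), the cAMP response element (TGACGTCA), its half-site (TGACG) and the GC box (GGGCGG), searched on both strands, the full element also counting as half-sites.
Plk1, chr7:122159345-122159434, plus strand: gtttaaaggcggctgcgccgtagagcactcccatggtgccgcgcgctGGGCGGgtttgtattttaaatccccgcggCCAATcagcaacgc
Plk1 just after its start, chr7:122159450-122159479: gttcccagcgccgcgTTTGAAttcggggag
Plk2, chr13:110394954-110395043, plus strand: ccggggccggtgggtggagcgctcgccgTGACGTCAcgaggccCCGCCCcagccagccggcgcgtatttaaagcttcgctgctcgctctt
Plk3, chr4:117133964-117134113, minus strand: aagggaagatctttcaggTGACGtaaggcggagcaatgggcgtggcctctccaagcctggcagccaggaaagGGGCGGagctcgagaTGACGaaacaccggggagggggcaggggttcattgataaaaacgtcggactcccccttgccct
Plk4, chr3:40799861-40799950, plus strand: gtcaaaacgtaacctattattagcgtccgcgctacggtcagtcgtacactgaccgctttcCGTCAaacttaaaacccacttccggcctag

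These matches are descriptions of letters and not of binding. Among the 5 members the cell-cycle genes homology region was found in the window of Plk1 only, at base 31 after the start, and 18.1% of 27025 promoter windows of the same length, from 250 bases before to 50 after the start, hold it. The full cAMP response element, which 1.88% of windows hold, was found in Plk2 only, at base -62. Plk3 held 2 half-sites, at -132 and -63, and Plk4 held 1 on the other strand, at -30; Plk2 held 1 more at 22, and 21% of all windows hold a half-site. GC boxes were found in all members but Plk4 and are in 35.9% of windows. CCAAT boxes were found in Plk1 and Plk5 and are in 37.9%.

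Plk2, the gene that was targeted, lies on chromosome 13 at 110395046 to 110400844 (GENCODE vM21, plus strand, 14 exons). In the p53-/- tumors its value was 186 at the lowest, 3402 at the median and 8028 at the highest. In the Plk2-/-; p53-/- tumors it was 36.6 at the lowest, 284 at the median and 553 at the highest. All p53-/- tumors but 1 lay above all 28 Plk2-/-; p53-/- tumors, and the exception was the library labelled p53null-7435. At 186, Plk2 in this library fell between the lowest and highest values of the larger group, 36.6 and 553. A low value alone does not show that the label is wrong, and the label was kept. The cause of the low value was not tested.

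Loss of the gene went with 10.5-fold lower Plk2 values, or -3.39 on the log2(value + 1) scale (standard error, 0.377; adjusted p = 1.30e-09 in limma, which pools the spread over 17208 genes with a mean of at least 10). It ranked 27 from the lowest difference among these genes. The lowest Plk2 value in these tumors still stood for 61 reads, and the highest count, in PLK2null-1973, was 972, so that reads of the gene were present in all 28. Without the library labelled p53null-7435 the difference was -3.70. Whether they came from host cells or from what is left of the targeted gene was not tested.

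Trp53, the gene of p53, also gave reads in all tumors. Its value ran from 349 through a median of 1818 to 5035 in the p53-/- tumors and from 1563 through 2597 to 3914 in the Plk2-/-; p53-/- tumors (difference, 0.64; standard error, 0.227; adjusted p = 0.0215 in limma). The highest value was that of the library labelled p53null-7435. A gene-level value does not show whether a normal transcript was made.

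**Figure D1:**
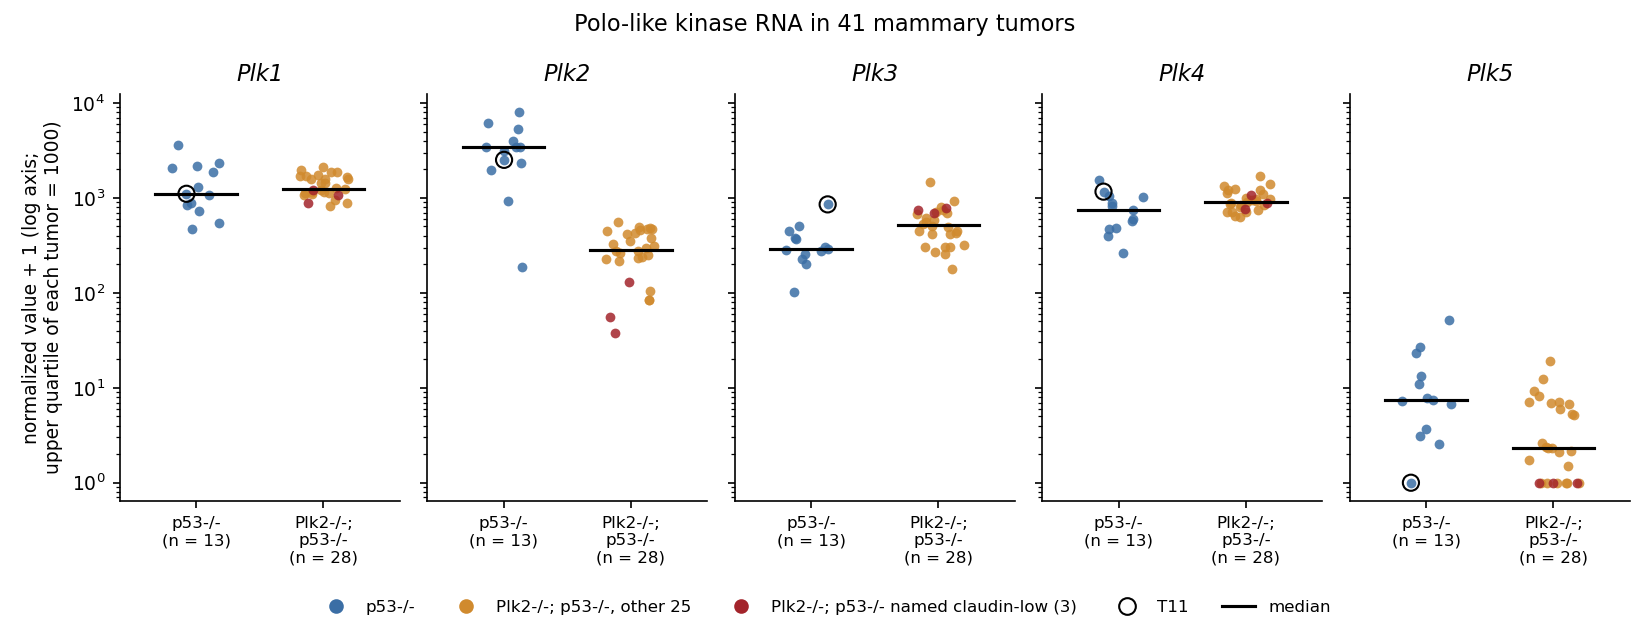
Normalized value plus 1 of each Polo-like kinase gene (log axis) in 13 p53-/- tumors and 28 Plk2-/-; p53-/- tumors; each point is a tumor, bars are medians, red points are the 3 claudin-low Plk2-/-; p53-/- tumors and the ringed point is T11. Plk2 separates all but 1 of the p53-/- tumors from the others (medians 3402 and 284), while the groups overlap for Plk1, Plk3, Plk4 and Plk5.

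Of the 4 members that passed the filter on low values, 3 were called between the genotypes at an adjusted p under 0.05 in limma, where 39.5% of all genes tested were called. Plk3 and Plk4 were called higher in Plk2-/-; p53-/- tumors, as were 24.3% of all genes, and Plk2 was called lower, as were 15.3%. Since so many genes differed, and since Plk2 is the gene that was targeted, 3 of 4 is no more than a description of the family. In none of the 4 did the groups fail to overlap, and they failed to overlap in 1.35% of genes.

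Plk1, the mitotic kinase, lies on chromosome 7 at 122159439 to 122169873 (plus strand, 10 exons), and a gene model on the opposite strand, Gm44985, overlaps it. In the p53-/- tumors its value was 470 at the lowest, 1105 at the median and 3595 at the highest. In the Plk2-/-; p53-/- tumors it was 822 at the lowest, 1254 at the median and 2098 at the highest. The p53-/- tumors reached both further down and further up, with 3 of them below and 3 above all Plk2-/-; p53-/- tumors.

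Plk1 did not pass the test between the genotypes. Its difference was 0.12 (standard error, 0.195; adjusted p = 0.667 in limma), with a 95% confidence interval from -0.28 to 0.51. The interval leaves room for a difference in either direction that is small beside that of Plk2. The standard deviation of log2(value + 1) was 0.88 among the 13 p53-/- tumors and 0.38 among the 28 Plk2-/-; p53-/- tumors. In the p53-/- group the extremes were p53null-10152 and p53null-2225L, and in the other PLK2null-1975 and PLK2null-7753.

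Plk3, which answers stress and growth signals, lies on chromosome 4 at 117128655 to 117133963 (minus strand, 15 exons). Its value in the p53-/- tumors was 101 at the lowest, 290 at the median and 854 at the highest, which was T11. In the Plk2-/-; p53-/- tumors it was 177 at the lowest, 514 at the median and 1456 at the highest, in PLK2null-1987. Of the 28 Plk2-/-; p53-/- tumors, 25 lay above the p53-/- median, although the groups overlapped.

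The difference of Plk3 was 0.71 (standard error, 0.228; 95% confidence interval, 0.25 to 1.17; adjusted p = 0.0112 in limma), or 1.64-fold higher in Plk2-/-; p53-/- tumors. With only the 7 primary Plk2-/-; p53-/- tumors the difference was 0.52 and was no longer called (adjusted p = 0.304 in limma), in a fit where 17.3% of genes were called. The gene Tctex1d4 overlaps the end of Plk3 on the other strand by 84 bases, and its own value was at most 4.67 in any tumor.

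Plk4, the kinase of centriole duplication, lies on chromosome 3 at 40800019 to 40816883 (plus strand, 16 exons). In the p53-/- tumors its value was 264 at the lowest, 741 at the median and 1555 at the highest. In the Plk2-/-; p53-/- tumors it was 628 at the lowest, 912 at the median and 1709 at the highest. There were 6 p53-/- tumors below all Plk2-/-; p53-/- tumors, and 1 Plk2-/-; p53-/- tumor, PLK2null-1974, above all p53-/- tumors.

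The difference of Plk4 was 0.44 (standard error, 0.167; 95% confidence interval, 0.11 to 0.78; adjusted p = 0.0320 in limma), or 1.36-fold higher. This call was lost after rescaling by trimmed mean of M values (TMM) factors (0.33, adjusted p = 0.114 in limma), after quantile normalization (0.39, adjusted p = 0.0526) and with the 7 primary tumors (0.50, adjusted p = 0.256). It was also lost when any 1 of 5 p53-/- tumors was left out, of which p53null-2396R moved it most (0.33, adjusted p = 0.0921).

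The scalings differ in where they put all genes. The median difference over all genes tested was 0.10 as deposited and -0.01 after TMM, a shift of -0.11. Of the called genes 61.4% were higher as deposited, 49.8% after TMM and 51.7% after quantile normalization. Plk3 was still called under both, but close to the threshold of 0.05. Its difference was 0.60 after TMM (adjusted p = 0.0446 in limma) and 0.62 after quantile normalization (adjusted p = 0.0484 in limma). Relative to the median of all genes, Plk1 differed by 0.02, Plk2 by -3.48, Plk3 by 0.62 and Plk4 by 0.35, and after TMM these 4 values were the same to 2 decimals.

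**Figure D2:**
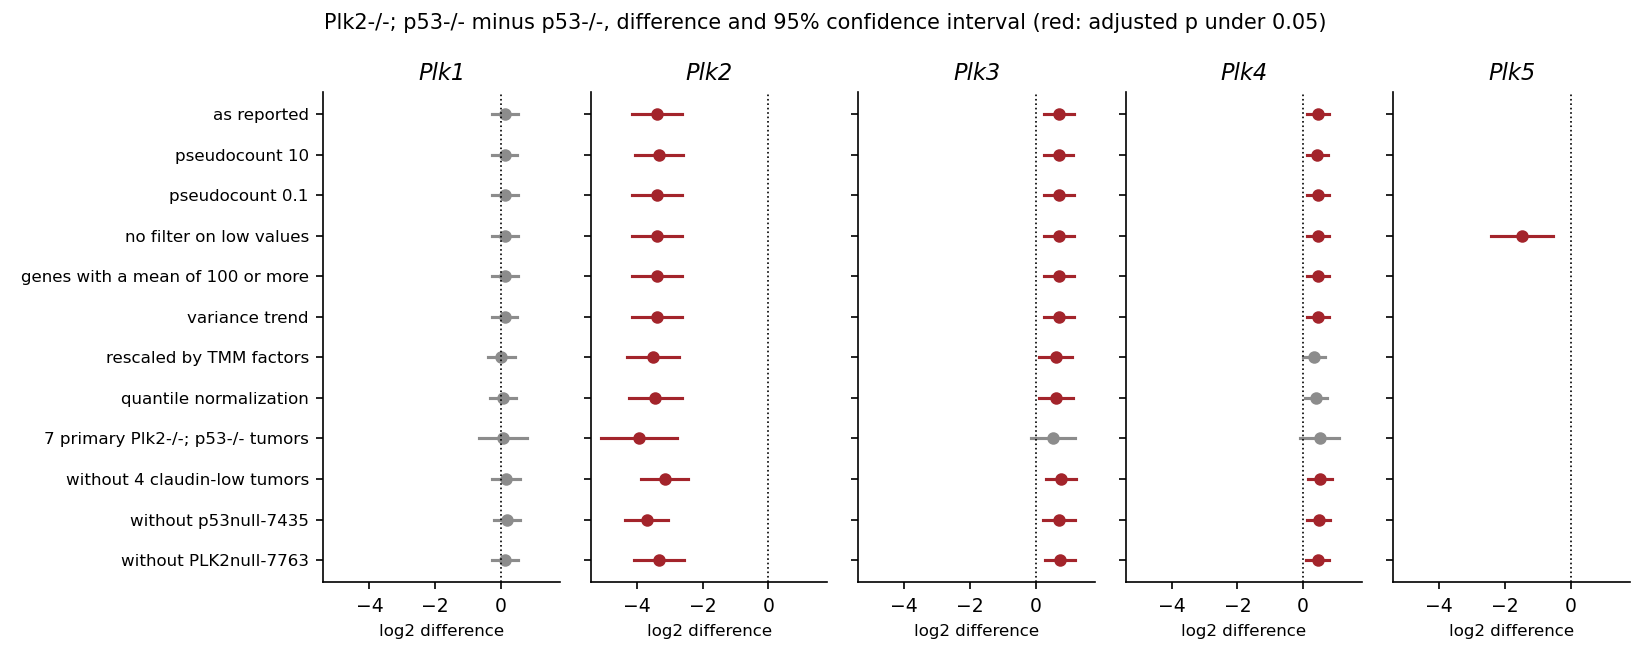
Log2 difference of each member between Plk2-/-; p53-/- and p53-/- tumors with its 95% confidence interval, as reported and under 11 alternatives; red marks an adjusted p under 0.05 in limma and gray the rest. Plk2 is called throughout, between -3.94 and -3.16, Plk1 is not called in any, Plk3 loses its call with the 7 primary tumors, Plk4 loses it in 3 alternatives, and Plk5 entered only the fit without a filter.

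Plk5 lies on chromosome 10 at 80356459 to 80365489 (plus strand, 15 exons) and, with a mean of 5.94, stayed below the filter. It was listed at 0 in T11 and reached 50.4 in p53null-5317, with a median of 6.47 in the p53-/- tumors. In the Plk2-/-; p53-/- tumors it was 0 at the lowest, 1.31 at the median and 18.1 at the highest, in PLK2null-7748. Plk5 values worth no more than 3 reads were seen in 17 of 28 Plk2-/-; p53-/- tumors and in 2 of 13 p53-/- tumors.

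Without a filter Plk5 differed by -1.49 (standard error, 0.464; adjusted p = 0.0133 in limma), where 9.29% of 33691 genes were called lower. A permutation test of Plk5 alone gave p = 0.00382 for the same difference. With the 7 primary tumors and no filter the difference was -1.08 and was not called (adjusted p = 0.391). The p53-/- libraries were deeper at the median. None of the 6 neuron markers was called between the genotypes, and their summed value ran from 548 to 5517 in the Plk2-/-; p53-/- and from 1150 to 5483 in the p53-/- tumors. The part of depth or of nerve tissue in the Plk5 difference was not tested.

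To set the members beside each other, values were divided by the length in kilobases (kb) of the principal transcript in GENCODE vM21 (Plk1, 2199; Plk2, 2800; Plk3, 2378; Plk4, 3479; Plk5, 2112 bases). In the Plk2-/-; p53-/- tumors the median level per kb was 570 for Plk1, 262 for Plk4, 216 for Plk3, 102 for Plk2 and 0.622 for Plk5. Plk1 was highest in all 28 tumors, and Plk5 was lowest in all 28. Plk4 was above Plk3 in 19 of 28 and Plk3 above Plk2 in 26 of 28, so that Plk3 and Plk4 are the neighbours whose order changed most among tumors.

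In the p53-/- tumors the order began with Plk2. Its median level per kb was 1215, followed by Plk1 at 502, Plk4 at 213, Plk3 at 122 and Plk5 at 3.06. Plk2 exceeded Plk1 in 10 of 13 tumors and both Plk3 and Plk4 in 12 of 13. Plk4 exceeded Plk3 in 9 of 13.

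The study set Plk1 against Plk2, and the log2 of their ratio per kb was therefore taken in each tumor. It was above 0 in 28 of 28 Plk2-/-; p53-/- tumors, with 1.32 at the lowest, 2.53 at the median and 5.23 at the highest. Since Plk2 is the gene targeted in these tumors, their ratio is a description and not a result about Plk1. In the p53-/- tumors the ratio was -2.92 at the lowest, -0.84 at the median and 3.89 at the highest, and above 0 in 3 of 13. The highest p53-/- ratio was again that of the library labelled p53null-7435, in which Plk1 was at 2176 and Plk2 at 186. The other p53-/- tumors with more Plk1 than Plk2 per kb were p53null-2225L and p53null-5317.

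**Figure D3:**
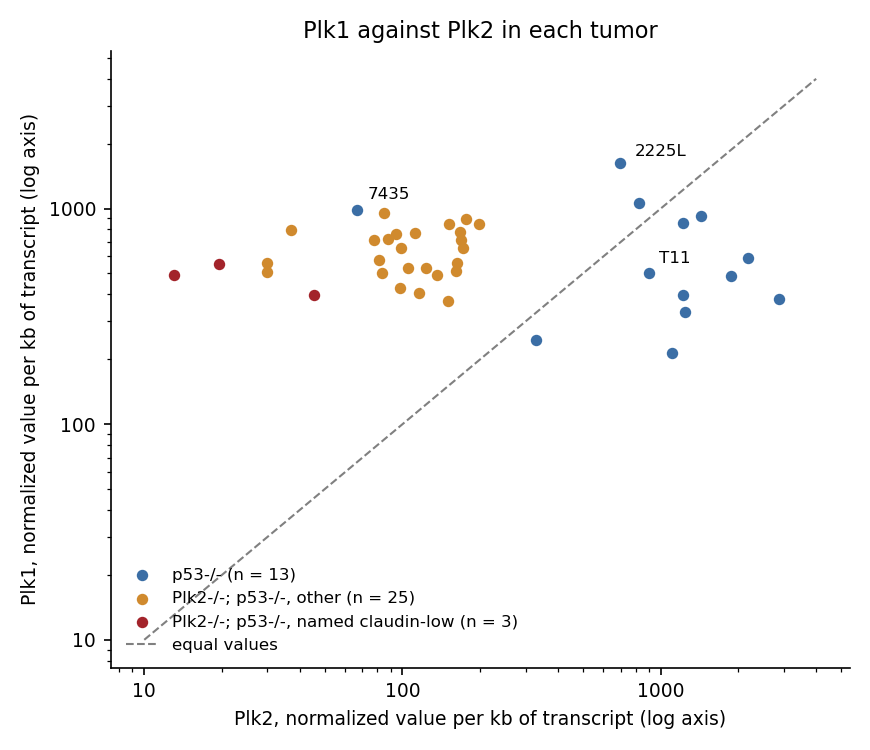
Plk1 against Plk2, both as normalized value per kb of transcript on log axes, with 1 point per tumor; the dashed line marks equal values. All 28 Plk2-/-; p53-/- tumors, in which Plk2 is the targeted gene, and 3 of 13 p53-/- tumors lie above the line, among them the library labelled p53null-7435.

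Members were then compared with each other across the 13 p53-/- tumors, where all 6 pairs of the 4 members above the filter were tested. Plk1 and Plk4 rose together (Pearson r = 0.75, permutation p = 0.00317, 0.0190 after Benjamini-Hochberg adjustment over 6 pairs; Spearman rho = 0.80, permutation p = 0.00182, adjusted p = 0.0109). Without p53null-10152 and p53null-2225L, the tumors farthest from the median of Plk1, r was 0.81. Over the 28 Plk2-/-; p53-/- tumors r was 0.44 and rho 0.37, given as a description.

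The other 5 pairs did not pass. Plk3 and Plk4 had r = 0.52 (permutation p = 0.0688, adjusted p = 0.206) and rho = 0.55 (permutation p = 0.0563, adjusted p = 0.169), but r was 0.30 without p53null-10152 and p53null-T11. Plk1 and Plk3 had r = 0.28 and rho = 0.32 (permutation p = 0.367 and 0.290, adjusted p = 0.718 and 0.471). Plk1 and Plk2 had r = -0.23 and rho = -0.27 (permutation p = 0.479 and 0.362, adjusted p = 0.718 and 0.471), and without the library labelled p53null-7435 r was 0.01.

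Plk2 with Plk4 (r = -0.16, rho = -0.26; permutation p = 0.609 and 0.393, adjusted p = 0.731 and 0.471) and Plk2 with Plk3 (r = -0.05, rho = -0.15; permutation p = 0.863 and 0.617 and the same after adjustment) also missed the threshold. Without the 2 tumors farthest from the median of the first gene, r of these pairs was -0.30 and -0.04, and r was 0.02 for Plk1 and Plk3 and -0.22 for Plk1 and Plk2.

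**Figure D4:**
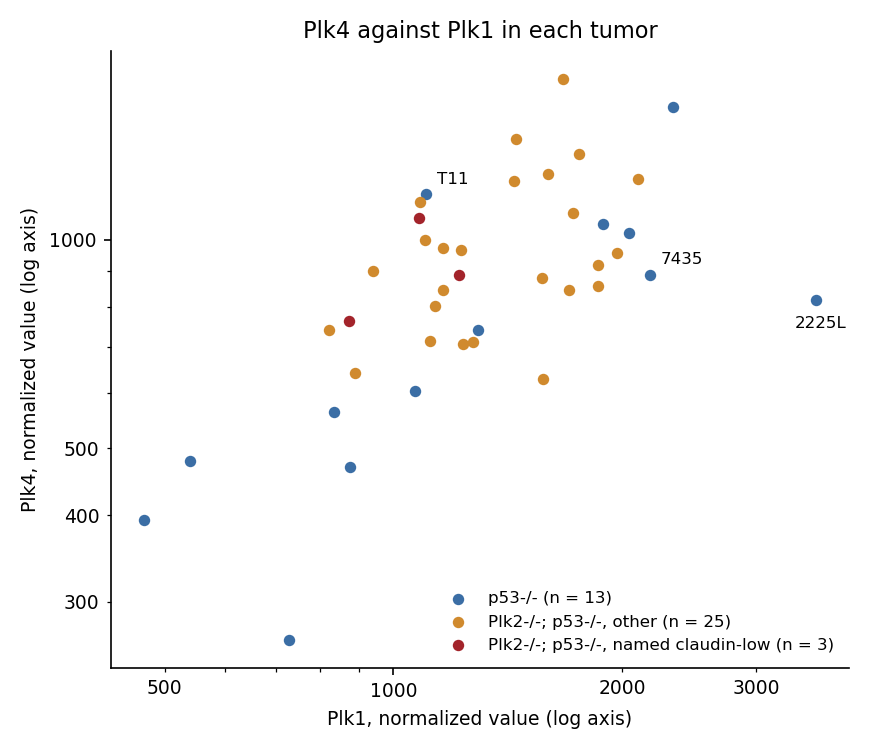
Plk4 against Plk1 as normalized values on log axes, with 1 point per tumor. The 13 p53-/- tumors spread along a rising band (r = 0.75), and the 28 Plk2-/-; p53-/- tumors lie between 822 and 2098 on the Plk1 axis (r = 0.44).

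The genes most like each member were ranked by the smaller of the 2 Pearson correlations within the genotypes (28 and 13 tumors), over 14808 genes. These points share libraries and depth, and no p-value is given. For Plk1 the leading genes were Tpx2, a spindle assembly factor (smaller r, 0.83), Ube2c, the ubiquitin-conjugating enzyme of the anaphase-promoting complex (0.76), and Mki67, the Ki-67 proliferation antigen (0.75). For Plk4 they were the condensin subunits Smc4 (0.89) and Ncapg (0.81) and the kinetochore motor Cenpe (0.84).

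For Plk3 the leading genes were the matrix protein gene Tgfbi (0.83), the AP-1 subunit gene Fosl1 (0.79) and E2f4, an E2F transcription factor (0.76). For Plk2 they were weaker: Crispld2 (0.64), the olfactory marker gene Omp (0.64) and F3, which encodes tissue factor (0.63). The smaller r of each of these 3 was below those of the genes named for Plk1, Plk3 and Plk4. In the Plk2-/-; p53-/- tumors r with Plk2 follows the remaining reads of the targeted gene, whose source was not tested. The ranking for Plk2 is therefore not one of an intact gene in both genotypes.

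Genes that work with each kinase were taken from lists chosen by known role, and counts are given beside those of all genes, of which 24.3% were called higher and 15.3% lower. After TMM 3419 of 17186 genes were called higher and 3446 lower. With the 7 primary tumors 1972 of 17050 were called higher and 970 lower. List counts under these 2 fits are to be read beside those numbers. Of 14 genes of PLK1 activation and mitotic entry, 3 were called higher in Plk2-/-; p53-/- tumors and none lower (median difference, 0.16), and after TMM 1 was called higher and 1 lower. The higher genes were Bora, a cofactor of Aurora A that activates PLK1 (0.37; standard error, 0.149; adjusted p = 0.0427), Wee1, the kinase that restrains CDK1 (0.47; 0.152; 0.0126), and Lin54, a DNA-binding subunit of the MuvB complex (0.64). Bora ran from 213 through a median of 331 to 699 in the p53-/- tumors and from 319 through 431 to 835 in the others, so that the groups overlapped.

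Of 24 partners and substrates of PLK1 in mitosis, 2 were called higher and 3 lower (median difference, 0.09, against 0.10 for all genes), and after TMM 1 higher and 3 lower. With the 7 primary tumors none of the 24 was called. Cdc20, the activator of the anaphase-promoting complex, was lower by 0.85 on the log2 scale in Plk2-/-; p53-/- tumors. Its value ran from 988 through a median of 2700 to 5985 in the p53-/- tumors and from 620 through 1428 to 2770 in the Plk2-/-; p53-/- tumors (difference, -0.85; standard error, 0.234; adjusted p = 0.00331 in limma). Cdca8, the borealin subunit of the chromosomal passenger complex, was also lower (-0.53; adjusted p = 0.0143), and Pcnt, which encodes the centrosome protein pericentrin, was higher (0.62; adjusted p = 0.00471).

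Of 13 genes of centriole duplication, 9 were called higher and none lower, with a median difference of 0.76 against 0.10 for all genes. Under the 12 alternatives 8 to 10 were called higher and none lower. Ccp110, a cap of centriole ends, ran from 96.5 through a median of 355 to 755 in the p53-/- tumors and from 517 through 854 to 1653 in the Plk2-/-; p53-/- tumors (difference, 1.38; standard error, 0.203). The highest p53-/- tumors still overlapped the lower Plk2-/-; p53-/- tumors.

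Cep135, a centriole assembly protein, differed by 1.17 (standard error, 0.153), and Stil, which binds and activates PLK4, by 1.14 (0.181). Stil was at 71.9 at the lowest, 257 at the median and 501 at the highest in the p53-/- tumors and at 335, 486 and 864 in the others. The other higher genes were Cep192, Cep97, Cep152, Cntrob, Cenpj and Sass6, with differences of 1.12, 1.03, 0.84, 0.76, 0.74 and 0.66. The difference of Plk4 itself was 0.44. The list genes that were not called were Cep63, Poc5, Fbxw5 and Btrc, at 0.26, -0.08, 0.23 and -0.09.

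**Figure D5:**
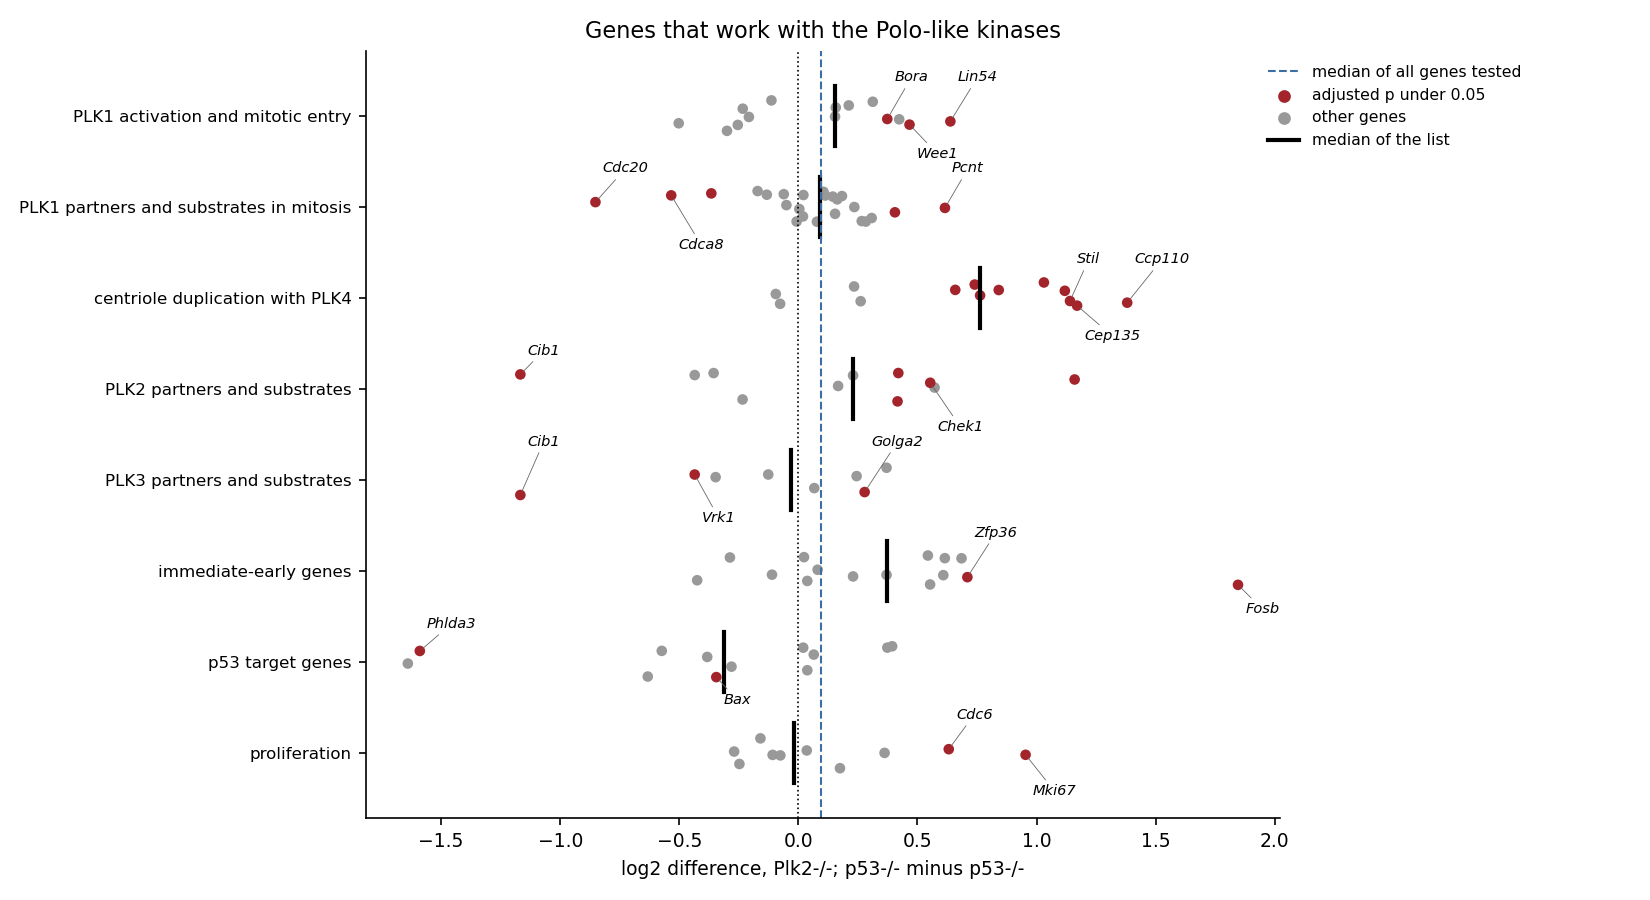
Log2 difference between Plk2-/-; p53-/- and p53-/- tumors of each gene on 8 lists; red marks an adjusted p under 0.05 in limma, black bars the median of a list and the dashed blue line the median of all genes tested, 0.10. The centriole list stands at a median of 0.76 with 9 of 13 genes called, all higher, while the bars of the 2 PLK1 lists lie near the line.

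Of 11 partners and substrates of PLK2, 4 were called higher and 1 lower (median difference, 0.23), and after TMM 1 was called higher and 2 lower. Chek1, the checkpoint kinase, was higher by 0.55 (adjusted p = 0.0226 in limma). Cib1, a calcium-binding protein that binds both PLK2 and PLK3, was lower by 1.17 on the log2 scale (difference, -1.17; standard error, 0.185), with medians of 799 and 1816.

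Of 8 partners and substrates of PLK3, 1 was called higher and 2 lower (median difference, -0.03), and after TMM none higher and 2 lower. Besides Cib1, Vrk1, a kinase of mitotic chromatin, was lower (-0.44; adjusted p = 0.0403), and Golga2, which encodes a Golgi matrix protein, was higher (0.28; adjusted p = 0.0225). Of 15 immediate-early genes, the class to which Plk2 and Plk3 belong by behaviour, 2 were called higher and none lower (median difference, 0.37). Fosb, an AP-1 subunit, differed by 1.85 (standard error, 0.351) and Zfp36, an RNA-decay factor, by 0.71 (adjusted p = 0.0105), while with the 7 primary tumors no gene of this list was called.

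Of 12 target genes of p53, none was called higher and 2 lower, Phlda3 (-1.59; adjusted p = 0.00270) and Bax (-0.34; adjusted p = 0.00974), in tumors that all lack p53; after TMM 4 were called lower and with the 7 primary tumors none. Of 10 proliferation genes, 2 were called higher and none lower (median difference, -0.02), and after TMM 2 higher and 1 lower. Mki67 had medians of 10856 in the Plk2-/-; p53-/- and 5042 in the p53-/- tumors (difference, 0.95; standard error, 0.194), and Cdc6, a replication licensing factor, differed by 0.63 (adjusted p = 0.00275).

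Markers of cell types were counted in the same way. Of 8 epithelial markers, 2 were called lower in Plk2-/-; p53-/- tumors, the basal keratins Krt5 (-5.13; adjusted p = 0.00796) and Krt14 (-3.06; adjusted p = 0.0302). Of 6 macrophage markers Cd68 was called higher (0.96), of 4 neutrophil markers tested Cxcr2 (1.97) and Csf3r (1.33) were higher, and of 5 adipocyte markers tested Cidec was lower (-2.28). No gene of the endothelium, fibroblast, T cell or neuron lists was called, the largest differences being those of Kdr (0.94), Cdh5 (0.78), Dcn (-1.26), Col1a2 (-0.84), Cd3d (-0.82), Cd3g (-0.73), Tubb3 (-1.08) and Nefl (0.82). Over the 12 alternatives the most genes called lower were 3 for epithelium, 1 for endothelium, 1 for fibroblast, 2 for T cell, 4 for adipocyte and none for neuron. With the 7 primary tumors no macrophage, neutrophil or adipocyte marker was called. The part of these cell types in the differences of Plk3, Plk4 and Plk5 was not tested.

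The claudin-low class was assigned by the study from these same profiles, so that values of the members in it are a description. The summed value of the 8 epithelial markers was at least 19888 in the other 25 Plk2-/-; p53-/- tumors and 33791 in T11, but 53.6, 88.7 and 404 in the claudin-low 3. Their summed value of the 6 endothelial markers was 165585 to 186496, against 2572 to 78025 in the other 25 and 6876 in T11. Summed T cell markers ran from 980 to 1889 in the 3 and from 63.3 to 1856 in the 25, and summed adipocyte markers from 99793 to 125166 and from 534 to 52376. Most of the adipocyte sum was Fabp4 (99093 to 124638 in the 3), while Adipoq, which marks fat cells, was at 3.58 to 11.9.

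Plk2 was at 36.6 in PLK2null-733, 54.4 in PLK2null-732 and 128 in PLK2null-743. In the other 25 it was 83.3 at the lowest, 314 at the median and 553 at the highest. All 3 lay below the median of the 25 and 2 of them below all 25; at least 2 of the 3 lay below all 25 for 12.8% of genes. In T11, where Plk2 is intact, it was at 2516 and ranked 9 of 13 from the highest among the p53-/- tumors.

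Plk3 was at 698, 750 and 791 in PLK2null-733, PLK2null-732 and PLK2null-743, and T11 had the highest Plk3 value of all p53-/- tumors, 854. In the other 25 Plk3 was 177 at the lowest, 491 at the median and 1456 at the highest. All 4 tumors that the study places in the claudin-low class were thus above the median of their genotype for Plk3, although 3 of the other 25 lay above all 3. By the marker sums T11 was unlike the 3. Its epithelial sum was 33791, against 53.6 to 404 in the 3, and its endothelial sum 6876, against 165585 to 186496. A trait shared by the class can therefore not be read from these 4 values. For 82.3% of genes all 3 tumors lay on 1 side of the median of the 25.

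Plk1 was at 1079, 1220 and 873 in the same order of tumors, all below the median of the other 25, which was 1441, and Plk4 was at 1074, 889 and 764, on both sides of a median of 921. Plk5 was listed at 0 in all 3 and in T11, and also in 6 of the other 25. For none of the 4 members above the filter did the 3 tumors stand apart from the 25 without overlap, which 20% of genes did. In PLK2null-7763, a primary tumor with an endothelial sum of 78025, Plk2 was at 83.3, the lowest of the 25, and Plk3 at 304. The part of endothelial cells in these values was not tested.

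Without the 4 claudin-low tumors, the genotype differences were -3.16 for Plk2 and 0.15 for Plk1, and Plk3 (0.77, adjusted p = 0.00613) and Plk4 (0.51, adjusted p = 0.0181 in limma) were still called higher. In the same fit 3 epithelial, 3 adipocyte, 2 T cell and 1 endothelial markers were called lower, and 2 neutrophil and 1 macrophage markers higher. Of all 17080 genes in that fit 42.4% were called, 4274 higher and 2970 lower. The part of the marked cell types in the differences of the members was not tested.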

How the data were processed

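RNA from 41 tumors was sequenced from Illumina TruSeq mRNA libraries as paired reads. Per the labels the processing used STAR 2.7.6a, Salmon 1.4.0, SAMtools and Picard 2.22.4 with mm10; the gene annotation is not given in the sources used here. The authors deposited a linear signal per gene: Salmon estimated counts divided by each tumor's upper quartile. Of nonzero values, 77.9 to 80.5% per tumor lay within 0.1 read of a whole read, so values divided by that of 1 read gave only depth, the floor and the read numbers of members, and no count model was used.

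Genotypes were compared with limma 3.58.1 (R 4.3.3) on log2(value + 1), which understates changes of low genes, over genes whose mean reached 10, with Benjamini-Hochberg adjustment over all of them and a threshold of 0.05. All 41 tumors entered without covariates. The tests were checked on simulated data. Permutation tests were 2-sided with 100000 resamples. Descriptive values were computed in Python 3.11.15 with pandas 2.3.3, numpy 2.4.6 and scipy 1.17.1. Positions and transcript lengths came from GENCODE vM21. Lengths are those of the APPRIS principal transcript, the first by name where a gene has several.

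Alternatives were other pseudocounts (10 and 0.1), filters (none, or a mean of at least 100), a variance trend, TMM rescaling, quantile normalization, a permutation test and fewer tumors; each tumor left out in turn, lists under each setting, and the 7 primary tumors without a filter were chosen after seeing the data. Members and lists were chosen with earlier results of these data known. Named genes were the members, Trp53, up to 3 called genes per list with the largest difference (2 where none was called) and the 3 genes most like each member. The other genes of the centriole list were named after their values were seen. A gene that the rule names among the PLK2 partners is counted but not reported here.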

Additional observations from a re-analysis of the deposited data

How the results depend on the processing

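No paired analysis was run, because the labels give no replicate numbers that tie tumors of the genotypes together. The study sorts the tumors into luminal-like, basal-like and claudin-low subtypes and picks the closest p53-/- tumors for each. Apart from the fit without the 4 claudin-low tumors, no fit took account of subtype. The part of subtype in the differences of the members was not tested. Plk1 stayed uncalled and Plk2 called in each alternative run. Plk3 was no longer called with the 7 primary tumors (0.52), nor was Plk4 after TMM (0.33), after quantile normalization (0.39) or with the 7 primary tumors (0.50), where 2942 genes were called in place of 6802; fewer tumors entered that fit. Plk5 entered limma only without a filter. It was called lower with all tumors (-1.49) but not with the 7 primary tumors (-1.08), and its untested difference was -2.41 with a pseudocount of 0.1 and -0.57 with 10; the other filters, the variance trend and quantile normalization gave it no value. Leaving out each of 41 tumors in turn gave 0.0018 to 0.25 for Plk1, -3.70 to -3.25 for Plk2, 0.58 to 0.84 for Plk3, 0.33 to 0.54 for Plk4, -1.73 to -1.26 for Plk5 and 6346 to 7074 called genes. Plk4 lost its call without p53null-2396R, p53null-5329, p53null-10151, p53null-10152 or p53null-10155 (adjusted p = 0.0508 to 0.0921 in limma). The Plk4 difference of the claudin-low tumors, -0.07, ran from -0.20 to 0.045 when each of the 3 was left out. The correlation of Plk1 and Plk2 turned to 0.0096 without the library labelled p53null-7435, and that of Plk2 and Plk3 to 0.038 after TMM. The cause of these changes was not tested. Without a filter 9053 of 33691 genes were called. Plk5 stood at no more than 3 reads in 19 of 41 tumors, and the part of depth in its values was not tested.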
